A study of Bos taurus with 6 samples.

Results

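The genes described here encode the peptides of the calcitonin family and PACAP and the receptors that these peptides use. They were taken by symbol from the authors' table: CALCA, CALCB, ADCYAP1, ADM and ADM2 for the peptides, and CALCRL, RAMP1, RAMP2, RAMP3 and ADCYAP1R1 for the receptors and their partners. The 10 symbols stood on 11 of 27607 Ensembl identifiers, since CALCB was listed under 2. The set was chosen by its symbols with the normalized counts of these 6 libraries, and the differences between Dox+ and Dox- among them, already known, so those differences are given as a description without p-values. The cells were bovine articular chondrocytes of the deep zone, the cartilage layer next to bone, from 3 independently collected knees. Every culture had received a lentivirus from which doxycycline switches on bovine CREB5, a CREB/ATF-type transcription factor, followed by 11 days of G418 (500 µg/ml) to remove cells without the construct. The cultures then spent 3 days on low attachment plates with 10% FBS, 20 ng/ml TGFb2 and 100 ng/ml TGFa. For that time 3 of them received doxycycline (Dox+) and the other 3 did not (Dox-). The dose is 1 µg/ml in the treatment protocol but 1 mg/ml in the series' design text, and which holds is not known. No library lacked the construct, so an action of doxycycline itself and one of the induced CREB5 cannot be told apart here.

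Calcitonin gene-related peptide (CGRP), adrenomedullin and intermedin are short peptides cut from larger precursors. They share a class B receptor, the calcitonin receptor-like receptor encoded by CALCRL, which reaches the cell surface only with a receptor activity-modifying protein (RAMP). With RAMP1 the pair is the CGRP receptor, and with RAMP2 or RAMP3 it is an adrenomedullin receptor. PACAP, encoded by ADCYAP1, is a neuropeptide of the secretin and VIP family whose own receptor is ADCYAP1R1 and which also binds the VIP receptors. All of these receptors can raise cAMP through Gs, the pathway that classically activates CREB proteins. CGRP and PACAP are best known from sensory nerve endings, including those in joints and bone, and CALCRL with RAMP2 from endothelium.

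The deposited values are normalized counts, that is, reads per gene divided by 1 size factor per library. Depth ranged from 20063379 reads (Dox+ 3) to 122366790 reads (Dox+ 2), so that 3 reads, the floor that a count of 0 allows, were worth between 1.32 normalized counts in Dox+ 2 and 6.98 in Dox+ 3. This floor covers counting error only. Same-numbered libraries deviated from their group means together, least clearly for number 3 (correlation 0.21), and were treated as pairs where stated. CREB5, the induced gene, lay between 308 and 509.5 normalized counts in Dox- and between 12413 and 21964 in Dox+ libraries, as the labels have it. A count for CREB5 does not separate the introduced copy from the cell's own gene. Of 10 listed chondrocyte markers, 9 passed the filter of a mean of at least 10 normalized counts, with ACAN (aggrecan) and COL2A1 (type II collagen) at no less than 7197 and 8779 in any library. CNMD (chondromodulin) was the exception, at 9.27 normalized counts or fewer.

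Among the peptides, CALCB (ENSBTAG00000047380), which the table names for the beta form of CGRP, was not counted once in Dox- cells and reached 1328, 853 and 1244 normalized counts in Dox+ 1, 2 and 3. These values rest on 785, 1933 and 535 reads. The 3 Dox+ libraries lay close together, at 1142 ± 254 (SD, n = 3), and the groups did not overlap. With each Dox- library set to 3 reads, CALCB was at least 422-fold higher in Dox+ cells. In bulk RNA, more cells with a transcript and more transcript per cell cannot be told apart. Taken by number, it was at least 722-fold, 192-fold and 678-fold higher in pairs 1, 2 and 3, the lowest bound belonging to the pair with the shallowest Dox- library.

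The name of this gene is not settled. RefSeq's gene table of another build, ARS-UCD2.0, gives its gene ID the symbol LOC514876 with the synonyms CALCA, CALCB and CT, the last standing for calcitonin. The second identifier named CALCB, ENSBTAG00000001516, is LOC407218 there, with the synonyms CALCB and CRSP1. CRSP1 stands for a calcitonin receptor-stimulating peptide, known from several mammals. This identifier had 2 reads in Dox- 1, 0 in Dox- 2 and Dox- 3, and 4, 9 and 4 reads in Dox+ 1, 2 and 3. The ratio of pooled reads was 10.2, with a 95% exact counting interval of 2.42 to 91.0. This interval covers counting error only, not the spread between libraries, and is no test of the difference. The authors' deposited log2 fold change for this identifier is 0.11 (SE 0.42). That value is not a ratio of pooled reads, and how it was estimated at such low counts is not known here. It is therefore not comparable with the ratio above. These levels, 1.23 normalized counts at most in Dox- and between 3.97 and 9.30 in Dox+ cells, were near the floor, and the identifier stayed below the filter. CALCA itself (ENSBTAG00000010089), which RefSeq also lists as CALC3, had 0 reads in all 6 libraries. The authors' counting could divide reads between such closely related genes, so the split among the 3 identifiers is uncertain, and gene counts do not separate calcitonin from CGRP transcripts of 1 gene.

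ADCYAP1 (ENSBTAG00000020650), the PACAP gene, also had 0 reads in each Dox- library. In Dox+ cells it stood at 225, 103 and 988 normalized counts in libraries 1, 2 and 3, from 133, 233 and 425 reads. Every Dox+ library was far above its floor, but the 3 differed widely among themselves (439 ± 480, SD, n = 3), and the highest was Dox+ 3, the shallowest library. Against 3 reads per Dox- library, the Dox+ mean was at least 162-fold higher. By number the bounds were at least 122-fold, 23.2-fold and 539-fold in pairs 1, 2 and 3.

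**Figure D1:**
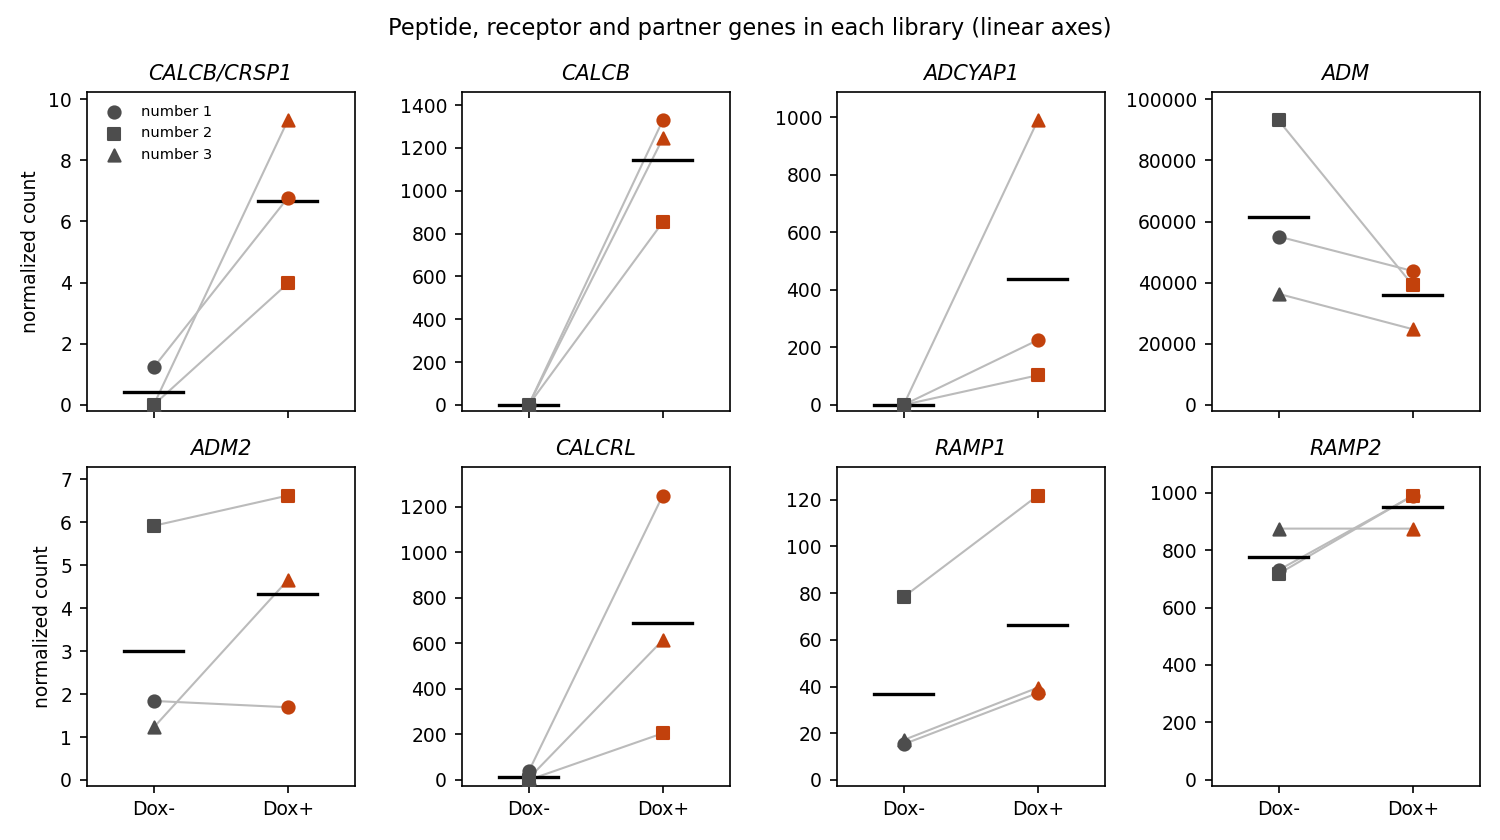
Normalized count of 8 identifiers in each library on linear axes, with grey points for Dox-, orange points for Dox+, a marker shape for each number, a grey line between same-numbered libraries and a black bar at each group mean. CALCB and ADCYAP1 lie at 0 in every Dox- library, CALCRL is close to 0 there, and ADM is lower in Dox+ than in Dox- within each number. CALCA, RAMP3 and ADCYAP1R1 are not drawn because they had no reads, and CALCB/CRSP1 is ENSBTAG00000001516.

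ADM (ENSBTAG00000021048) encodes adrenomedullin, a vasodilator peptide that is also a textbook target of hypoxia-inducible factors. It was abundant in both groups, at 55089.9, 93077 and 36335 normalized counts in Dox- 1, 2 and 3 and at 43802, 39166 and 24764 in Dox+ 1, 2 and 3. The groups overlapped, since Dox- 3 lay below Dox+ 1 and Dox+ 2, but Dox+ was lower within each number, by 1.26-fold, 2.38-fold and 1.47-fold. The group means were 61501 ± 28909 and 35911 ± 9928 (SD, n = 3), a log2 fold change of -0.71 (SE 0.36), and ADM was not called with or without the replicate number as a block. The authors' deposited table gives a log2 fold change of -0.61 (SE 0.23) for it. ADM2 (ENSBTAG00000054072), which encodes intermedin, was near the floor throughout, at 1.84, 5.92 and 1.22 normalized counts in Dox- 1, 2 and 3 and, with doxycycline, at 1.69, 6.62 and 4.65 in Dox+ 1, 2 and 3.

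Of 11 other hypoxia targets listed beside ADM, 0 were called by limma, with a median log2 fold change of -0.42 against -0.0036 over all 13180 tested genes. At an unadjusted p under 0.05, 1 passed. EdgeR called 0 of them and DESeq2 1. The 3 with the largest difference were EGLN3, a HIF prolyl hydroxylase, at 10718 ± 2899 and 3666 ± 2298 normalized counts without and with doxycycline (log2 fold change -1.69), NDRG1 (-0.50) and BNIP3 (-0.46). EGLN3 was not called (limma adjusted p = 0.071, and 0.0012 to 0.31 over the alternatives run), but was called lower with the replicate block (0.0012), by DESeq2 (0.0047) and without Dox+ 1 (0.0069).

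CALCRL (ENSBTAG00000008483), the receptor shared by CGRP, adrenomedullin and intermedin, stood at 37.4, 0 and 6.73 normalized counts in Dox- 1, 2 and 3, from 61, 0 and 11 reads. In Dox+ 1, 2 and 3 it reached 1249, 205 and 614, from 738, 465 and 264 reads. The groups did not overlap, and the order of the numbers was the same in both, with library 1 highest and library 2 lowest. The group means were 14.7 ± 19.9 and 689 ± 526 (SD, n = 3), with a log2 fold change of 6.34 (SE 1.2) on the log2(normalized count + 1) scale. Since Dox- 2 was at 0, this value depends on the pseudocount, and it was 5.33 with a pseudocount of 5 and 5.40 by edgeR. Within numbers, CALCRL was 33.4-fold higher in pair 1, 91.3-fold in pair 3 and at least 46.3-fold in pair 2. It was called higher, and it lost the call without Dox- 3 (log2 fold change 6.45), without Dox+ 1 (5.74) and without Dox+ 3 (6.25) in fits without the block. The fit with the block, run on all 6 libraries only, also called CALCRL higher. These calls are a description, since the gene was chosen with this contrast known.

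Its partners moved far less. RAMP2 (ENSBTAG00000019903), which makes CALCRL an adrenomedullin receptor, was at 730.3, 717 and 874 normalized counts in Dox- 1, 2 and 3 and at 988, 989 and 874 in Dox+ 1, 2 and 3. Its log2 fold change was 0.30 (SE 0.19), without a call, and the libraries numbered 3 were level. RAMP1 (ENSBTAG00000011534), which makes it a CGRP receptor, was at 15.3, 78.4 and 17.1 in Dox- 1, 2 and 3 and at 37.2, 122 and 39.5 in Dox+ 1, 2 and 3. It was higher with doxycycline in 3 of 3 pairs, by 2.43-fold, 1.55-fold and 2.31-fold, yet both libraries numbered 2 stood above all others, and the groups overlapped. Its log2 fold change of 1.01 (SE 0.73) was not called with or without the block. RAMP3 (ENSBTAG00000020704), the other adrenomedullin partner, had 0 reads in all 6 libraries.

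ADCYAP1R1 (ENSBTAG00000020247), the PACAP receptor gene, also had 0 reads in all 6 libraries, which allows up to 1.32 normalized counts in the deepest library. Another receptor for PACAP was counted. VIPR2, a receptor for VIP and PACAP chosen here after its values were seen, was at 49.7, 297 and 478 normalized counts in Dox- 1, 2 and 3 and at 105, 625 and 302 in Dox+ 1, 2 and 3. These groups overlapped (log2 fold change 0.49, SE 0.87, limma adjusted p = 0.92). VIPR1 reached 3.38 normalized counts at most, and CALCR, the calcitonin receptor gene, had 0 reads. ACKR3, a scavenging receptor for adrenomedullin and chemokines that was also chosen after its values were seen, had 15637 ± 6119 in Dox- and 12486 ± 4538 in Dox+ cells (n = 3, limma adjusted p = 0.88).

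In all, 6 of the 11 identifiers passed the filter, and limma called 3 of them higher (CALCB, ADCYAP1 and CALCRL) and 0 lower. Over all 13180 tested genes, limma called 2.88% in either direction, 2.52% higher and 0.357% lower, and with the replicate block 6.51% in either direction, 4.86% higher and 1.65% lower. EdgeR called 2.6% (2.31% higher, 0.296% lower) and DESeq2 5.32% (4.11% higher, 1.21% lower), and 10.6% passed an unadjusted p under 0.05. The 3 Dox+ libraries lay above the 3 Dox- libraries in these 3 genes and in ENSBTAG00000001516, and this held for 8.88% of tested genes, while the reverse held for 6.29% of tested genes and 0 of these members. Nothing is read from these shares, because the members were chosen with this contrast known. CALCB and ADCYAP1 passed the filter only through their Dox+ values and so had to differ. Their fitted log2 fold changes, 10.13 and 8.16, depend on the added pseudocount and are no bounds. With a pseudocount of 5 they were 7.82 and 5.86, and with 0.5 they were 11.13 and 9.15. Their calls under the alternatives follow from the same 0 values and are no sign of stability.

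**Figure D2:**
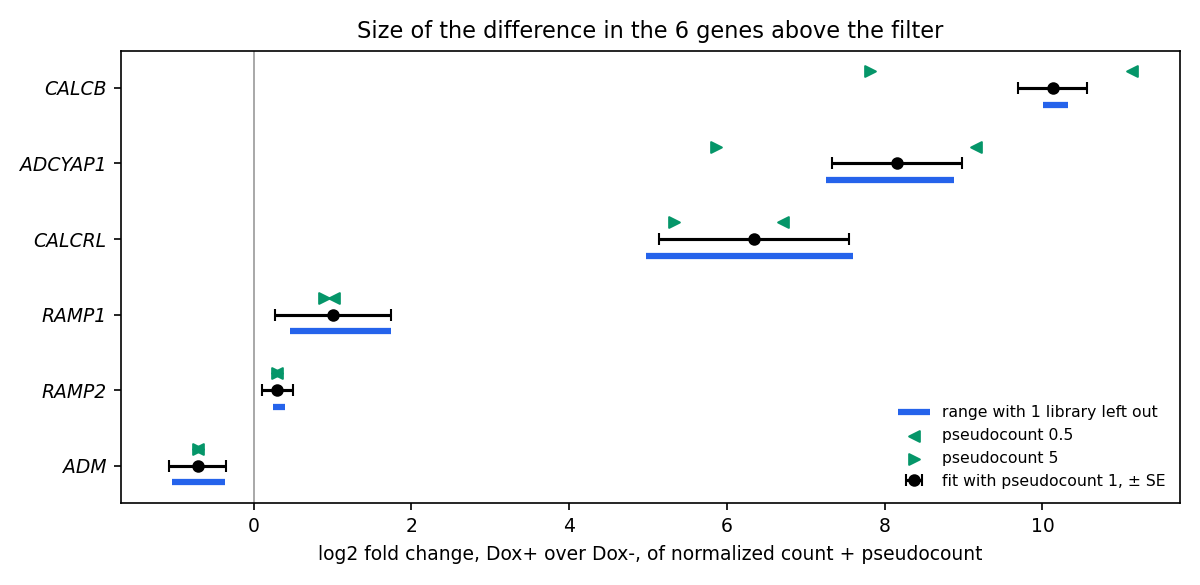
Log2 fold change of Dox+ over Dox- for the 6 identifiers above the filter, with black points and SE bars for a pseudocount of 1, green triangles for other pseudocounts and a blue bar for the range with 1 library left out. CALCRL spans 4.97 to 7.61 with single libraries left out, RAMP1 0.46 to 1.74 and ADM -1.04 to -0.36, while RAMP2 stays between 0.25 and 0.39.

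The genes whose centred log2 levels followed each of these 6 most closely over the 6 libraries are given by the root mean square difference, as a description. Those nearest to CALCB were both identifiers of NRG1, a ligand of ERBB receptors (0.40 and 0.61), and FILIP1, a filamin-binding protein (0.60). NRG1 was 0 in the Dox- libraries for the nearer identifier and 1161, 456 and 686 normalized counts in Dox+ 1, 2 and 3. Nearest to ADCYAP1 were RANBP3L (0.70), NETO2, an auxiliary subunit of kainate receptors (0.76), and MAL2 (0.77), all at greater distances than NRG1 from CALCB. CALCRL was followed by CNTNAP4 (0.66), FLRT3 (0.68) and NTRK2, the BDNF receptor (0.69). NTRK2 stood at 96.3, 2.96 and 12.8 in Dox- 1, 2 and 3 and at 1203, 662 and 914 in Dox+ 1, 2 and 3, with the order of the numbers seen in CALCRL.

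ADM was followed by SOX6, a transcription factor of chondrocytes (0.12), BAIAP2L1 (0.13) and ACTN3 (0.13). The distance is not scaled to how far a gene varies, so it is smaller for members that vary less. It therefore does not rank ADM as better matched than CALCB, ADCYAP1 or CALCRL. SOX6 was at 1614, 2412 and 906 in Dox- 1, 2 and 3 and at 1059, 972 and 546 in Dox+ 1, 2 and 3, highest in Dox- 2 as ADM was. The genes nearest to RAMP1 were ENHO (0.30), THBS2, a matrix thrombospondin (0.31), and SOD3, extracellular superoxide dismutase (0.34), each with its highest level of either group in the library numbered 2. RAMP2 varied so little that its nearest genes, SLC39A4 (0.050), PPT2 (0.064) and CCDC9 (0.068), are simply other genes with small differences among libraries.

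By RefSeq order, the 3 calcitonin identifiers are neighbours, with CALCA between ENSBTAG00000047380 and ENSBTAG00000001516. INSC and SOX6 lie beyond the former, and CYP2R1 and PDE3B beyond the latter. Within this run the difference was steep: 1142 ± 254 normalized counts in Dox+ cells at CALCB, 0 reads at the adjacent CALCA, and 2.65 or less at INSC on the other side. Of the genes farther out, limma called none without the block. CYP2R1, a vitamin D hydroxylase, had a log2 fold change of 0.36 (limma adjusted p = 0.89). SOX6 had -0.88 (adjusted p = 0.46, and 0.030 with the block). PDE3B, a cAMP phosphodiesterase, had 1.22 (limma adjusted p = 0.17, 0.042 with the block and 0.030 to 0.64 over the alternatives run).

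**Figure D3:**
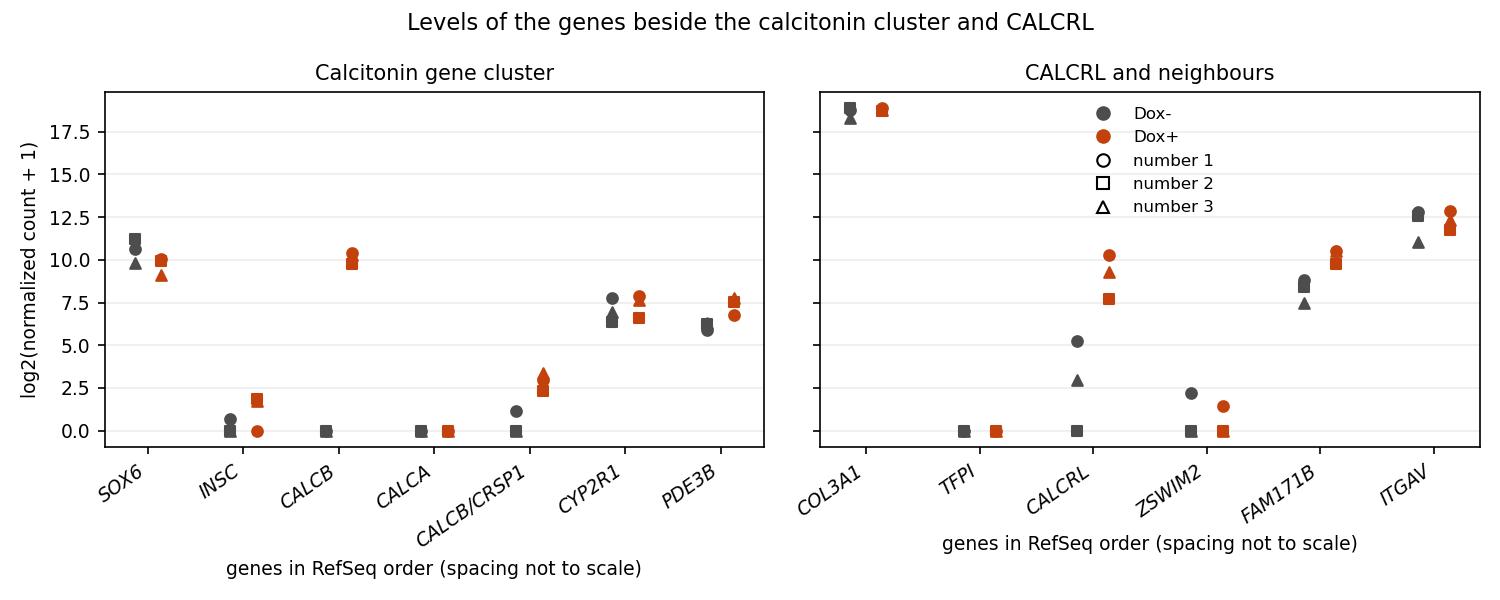
Level of each gene as log2(normalized count + 1) in every library, for the genes around the calcitonin cluster (left) and around CALCRL (right), in RefSeq order with spacing not to scale, with grey points for Dox-, orange points for Dox+ and a marker shape for each number. CALCB and CALCRL change between the groups while the adjacent CALCA and TFPI lie at 0 in every library, and FAM171B is the only other gene drawn that was called.

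CALCRL had TFPI, a coagulation inhibitor of endothelium, on one side with 0 reads in all libraries, and ZSWIM2 on the other with 3.68 normalized counts or fewer. The next gene, FAM171B, rose from 448, 333 and 177 in Dox- 1, 2 and 3 to 1437, 846 and 1456 in Dox+ 1, 2 and 3 (log2 fold change 2.02, limma adjusted p = 0.022). It lost the call without Dox- 2 (adjusted p = 0.063), without Dox+ 1 (0.091) and without Dox+ 3 (0.14). None of the 3 nearest measured genes on either side of ADCYAP1 was called. RBM44, the neighbour of RAMP1, was at 331 and 197 in Dox- 2 and Dox+ 2 and at 6.98 or less in the other 4 libraries, so RAMP1 and RBM44 were both highest in the libraries numbered 2.

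Around the peptides, genes were taken from lists by textbook role. Folds for them, other than bounds, come from the fitted log2 fold change, so they differ from ratios of the group means. Relatives of the family that bind or resemble these peptides made a list of 9 symbols, of which 8 were found, 4 were tested and 1 was called higher. That gene was VIP, vasoactive intestinal peptide, which had 0 reads in every Dox- library and reached 20.3, 14.6 and 34.9 normalized counts in Dox+ 1, 2 and 3. Against 3 reads per Dox- library it was at least 8.60-fold higher. It passed the filter only through Dox+ cells and so had to differ, and its call (limma adjusted p = 0.020) is a description. Leaving out Dox- 2, Dox- 3, Dox+ 1 or Dox+ 3 gave an adjusted p of 0.054, 0.059, 0.078 and 0.12. With a mean of at least 50 required, it was not tested. The list's median log2 fold change was 0.19.

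Of 20 other class B receptor and ligand genes, 2 were tested. PTHLH, parathyroid hormone-related protein, a growth plate regulator, rose 22.7-fold, from 63.8, 44.4 and 145.5 in Dox- 1, 2 and 3 to 1641.5, 1442 and 2114 normalized counts in Dox+ 1, 2 and 3 (limma adjusted p = 0.00056). PTH1R, its receptor, was at 751 ± 315 in Dox- and 301 ± 17.3 in Dox+ cells (n = 3) and was not called (limma adjusted p = 0.096, and 0.0037 to 0.31 over the alternatives run). PTH1R was called lower with the replicate block (adjusted p = 0.018), by DESeq2 (0.0037) and without Dox- 1 (0.025). These 2 genes gave a median of 1.63.

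Enzymes and granule proteins that mature and store such peptides showed 2 rises among 15 tested genes, with 0 falls and a median log2 fold change of 0.06. PCSK5, a proprotein convertase, rose 4.07-fold, from 619.9, 619.7 and 562 in Dox- 1, 2 and 3 to 2394.5, 2699 and 2260.3 in Dox+ 1, 2 and 3 (limma adjusted p = 0.00046). SCG2, secretogranin II, a granule protein of neuroendocrine cells, rose 24.2-fold, the group means being 14.8 ± 3.64 and 415 ± 215 (n = 3, limma adjusted p = 0.00097). PAM, the enzyme that amidates the C-terminus of CGRP, adrenomedullin and PACAP, was chosen after its values were seen. It was at 20126 ± 2164 in Dox- and 17078 ± 2069 in Dox+ cells (n = 3, adjusted p = 0.80). PCSK2, a convertase of neuroendocrine granules, had 0 reads, and CHGA and CHGB (chromogranins) reached 4.65 normalized counts at most.

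Among 7 tested identifiers of peptide breakdown, 2 rose and 0 fell, with a median of -0.17. CPM, carboxypeptidase M, a membrane enzyme that removes C-terminal basic residues, rose 10.04-fold. The means of the groups were 204 ± 89.9 and 2139.9 ± 993 normalized counts (n = 3, limma adjusted p = 0.0044). MME, neprilysin, which cleaves adrenomedullin and CGRP among other peptides, rose from 270.4, 359 and 356 in Dox- 1, 2 and 3 to 2252, 739.7 and 988 in Dox+ 1, 2 and 3 (limma adjusted p = 0.041). MME lost the call without Dox- 1, Dox- 2, Dox- 3, Dox+ 1 or Dox+ 3, with adjusted p between 0.065 and 0.14.

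**Figure D4:**
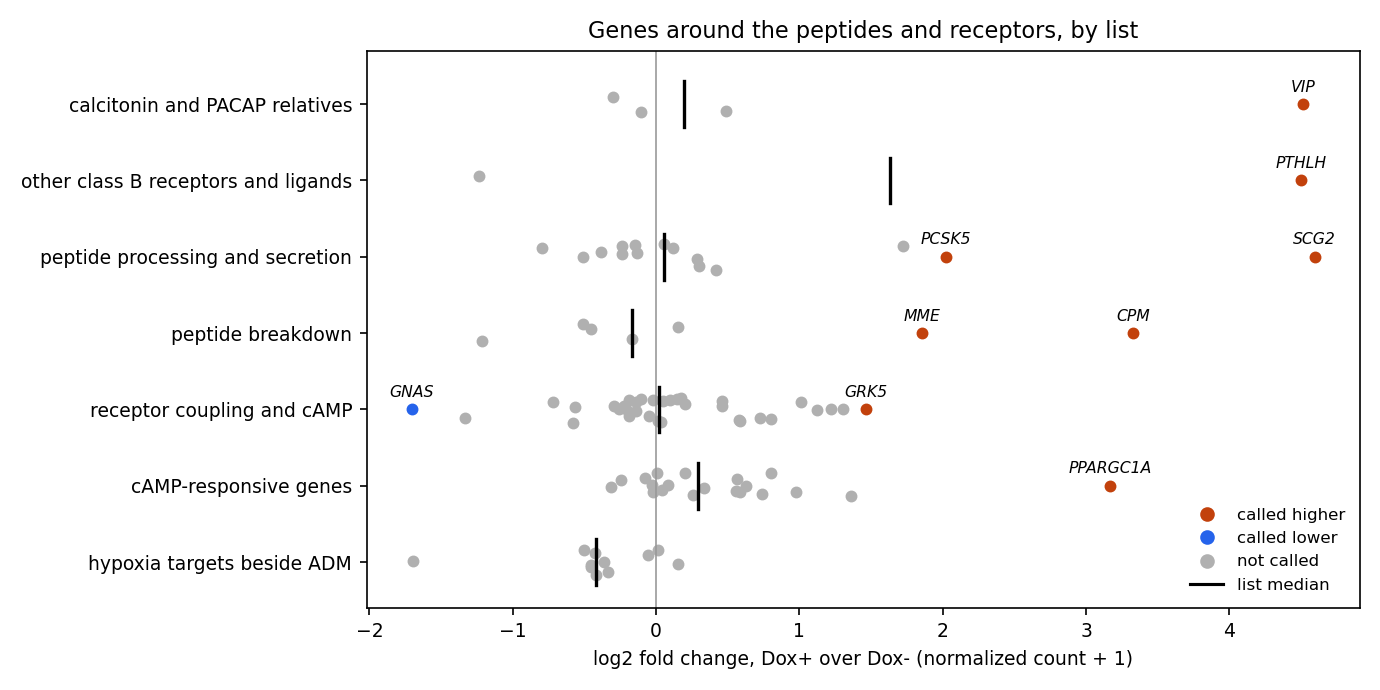
Log2 fold change of every tested gene in 7 lists around the peptides and receptors, with orange points for genes called higher, blue for lower, grey for not called and a black bar at the list median. Most genes of receptor coupling lie near 0, and the called genes are VIP, PTHLH, PCSK5, SCG2, MME, CPM, GRK5, PPARGC1A and 1 identifier of GNAS.

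Receptor coupling and cAMP turnover held 34 tested identifiers, of which 1 rose, 1 fell and 32 were not called, with a median log2 fold change of 0.02. GRK5, a kinase that desensitizes G protein-coupled receptors, rose 2.76-fold, with means of 206 ± 19.0 and 588 ± 189 (n = 3, limma adjusted p = 0.028). It lost the call without Dox- 2, Dox- 3, Dox+ 2 or Dox+ 3 (adjusted p 0.079 to 0.13). GNAS, the Gs alpha locus, was listed under 2 identifiers. ENSBTAG00000047223 fell from 545 ± 37.0 to 169 ± 41.0 (n = 3, adjusted p = 0.0097, 0.050 without Dox- 2 and 0.068 without Dox+ 3), while ENSBTAG00000052413, which held most of the counts, was at 122207 ± 18897 and 102464 ± 16083 (adjusted p = 0.85). How reads were divided between overlapping transcripts of this locus is uncertain. With the block, 4 were called higher, the added ones being PDE3B, PDE4B and GRK3, and 1 lower, where 6.51% of all tested genes were called. DESeq2 called 3 higher, the added ones being PDE3A (DESeq2 adjusted p = 0.042) and PDE3B (0.030), and 1 lower. The shares over all tested genes were 4.11% higher and 1.21% lower by DESeq2, and 2.52% and 0.357% by limma without the block.

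Genes classically induced by cAMP and CREB showed 1 rise among 20 tested and 0 falls, with a median of 0.30. Over all tested genes, limma called 2.52% higher and 0.357% lower. PPARGC1A, a metabolic coactivator, was at 43.5, 8.87 and 12.8 in Dox- 1, 2 and 3 and rose to 103, 173 and 242 in Dox+ 1, 2 and 3 (limma adjusted p = 0.029). It was not called by edgeR (adjusted p = 0.059) nor without Dox- 2, Dox- 3, Dox+ 1, Dox+ 2 or Dox+ 3 (adjusted p 0.051 to 0.18). Immediate early genes such as FOS (log2 fold change 0.09), NR4A1 (0.56) and CREM (0.34), named after their values were seen, were not called. With the block, 4 genes were called higher, where 4.86% of all tested genes were. Beside PPARGC1A these were ATF3, PER1 and PDE4B, the last of which also stands in the coupling list.

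Because CALCRL, CGRP and PACAP are known from endothelium and sensory neurons, markers of such cells were read beside them. Of 10 endothelial markers, CLDN5 and ESAM had 0 reads in all libraries and CDH5 and EMCN reached 3.68 normalized counts at most, while 4 were tested and 0 called by limma, edgeR also calling 0, DESeq2 1 and 1 passing an unadjusted p under 0.05. Their sum was 1762 to 2585 in Dox- and 846 to 1475 in Dox+ libraries, most of it from ERG, which chondrocytes also express and which was called lower with the block (limma adjusted p = 0.0042), by DESeq2, without Dox- 1 and without Dox+ 2, over a range of 0.0042 to 0.26. Of 16 sensory neuron markers, STMN2, ELAVL4 and SCN10A had 0 reads in all libraries, 5 were tested and 1 rose, the neurofilament gene NEFH, from 90.1 ± 30.6 to 471 ± 161 (n = 3, limma adjusted p = 0.012, and 0.092 without Dox+ 3). With no filter on low values 2 more were called higher, SYT1, at 8.46 normalized counts at most, and ISL1, at 13.95 at most (limma adjusted p = 0.028 and 0.026). The 16 markers summed to 828 to 1185 in Dox- and 1309.9 to 1669 in Dox+ libraries.

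Among Schwann cell markers, FOXD3 and CDH19 had 0 reads in all libraries and SOX10 and ERBB3 reached 3.07 normalized counts at most. S100B, which chondrocytes also express, was at 12331 to 17910.4 in Dox- and 10659.5 to 15570.3 in Dox+ libraries and was not called (limma adjusted p = 0.80). Of 7 smooth muscle and pericyte markers, MCAM rose 41.9-fold (limma adjusted p = 0.00021) and ACTA2 fell 4.18-fold (adjusted p = 0.0031). The log2 fold change of MCAM was 5.47 with a pseudocount of 0.5 and 4.88 with 5. Its level in Dox- cells was thus low, and its fold depends on the pseudocount. MYH11 reached 8.46 at most and RGS5 10.2, and RGS5 was called higher with no filter on low values (limma adjusted p = 0.018). The sum of the 7 was 2783 to 8138 in Dox- and 6551 to 17576 in Dox+ libraries. Macrophage markers summed to 204 to 493 in Dox- and 381 to 738 in Dox+ libraries, with 0 of 3 tested called by limma, edgeR and DESeq2 and 0 at an unadjusted p under 0.05. The part of such cells in the differences above was not tested. Among the chondrocyte markers, 1 rose (MATN3), 2 fell (ACAN and COL9A1) and 6 were not called, with a median of -1.48. The replicate block gave 1 higher and 4 lower, and DESeq2 1 higher and 5 lower. Over all tested genes, the block called 4.86% higher and 1.65% lower, and DESeq2 4.11% higher and 1.21% lower. ACAN lost the call without Dox- 2, Dox- 3, Dox+ 1 or Dox+ 3 (limma adjusted p 0.10 to 0.17) and MATN3 without Dox+ 3 (0.059).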

How the data were processed

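The authors' deposited table holds a signal per gene: normalized counts, each a read count over a size factor of its library. The submitters' processing notes list DESeq2, Salmon, STAR 2.5.2b, MultiQC 1.2 and FastQC 0.11.3, with bosTau9 and ARS-UCD1.2 as builds, but no role for any of them. The authors' deposited comparison table gives log2 fold changes, a standard error (used as a score) and p-values; the p-values were not used. All values above 0 (100%) were whole reads within 0.01 read, so reads were recovered. The sources used here do not say how strand was treated.

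Genes with a mean of at least 10 normalized counts (13180) were tested with limma 3.58.1 (R 4.3.3; two-sided, with a mean-variance trend) on log2 of the normalized count plus 1, Benjamini-Hochberg adjusted over all tested genes, called at 0.05. Alternatives used edgeR 4.0.16 and DESeq2 1.42.0 on the reads. The fit was checked on simulated reads, with the same dispersion for every gene, no pairs and no gene set absent from a group. This check does not reach genes such as CALCB and ADCYAP1. Deviations of same-numbered libraries correlated at 0.65, 0.44 and 0.21 for numbers 1, 2 and 3. Across numbers they correlated at -0.59 to 0.18, the highest being Dox- 3 with Dox+ 2. The numbers were therefore taken to pair the libraries, though number 3 was hardly set apart. This pairing rests on the data, since the labels give 3 knees without tying numbers to them. The p-values measure the spread between 3 libraries per group. Members and lists were chosen with earlier results of these data known. Named were all members, every called list gene (otherwise the 3 largest differences), markers by level, CREB5 and the 3 nearest profiles per member; genes outside this rule are marked, and neighbours by RefSeq order (3 on each side) were added after seeing the data. Of the members, 11 of 11 identifiers matched a RefSeq gene ID. No sequence was used. Some marker genes are not reported here.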

Additional observations from a re-analysis of the deposited data

How the results depend on the processing

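The number of these genes called higher was 3 in every alternative run with all libraries and 2 to 3 with 1 library left out, where only CALCRL lost its call, and 0 were called lower in any. None of the 6 tested members changed sign in the 14 alternatives, while ADM2 and ENSBTAG00000001516 were not followed there. CALCB and ADCYAP1, without a read in any Dox- library, could not change sign. Of the 6 members' fold changes, 77 moved by less than the spread between replicates and 7, all of CALCB or ADCYAP1, by more, under another pseudocount, edgeR or DESeq2. Many of the 77 could not move. The other filters and the replicate block leave a member's fold change as it was. Leaving out a Dox- library cannot move CALCB or ADCYAP1. The count is thus no measure of stability. Over all genes, 332 were higher and 47 lower, against 640 and 218 with the replicate block and 542 and 159 with DESeq2. With 1 library left out, 139 to 365 were higher and 9 to 72 lower, the fewest without Dox+ 3. With equal library totals the median log2 fold change of all genes was 0.10. Of the list counts, 143 stayed within 1.5 times, 22 were lower and 17 higher. The pairing by replicate block ended no call. Beside the calls given above, it added ANPEP, COL2A1 and SNORC as lower and DES as higher, and it changed no other call in these lists or members. Identifiers near 3 reads, ADM2 and ENSBTAG00000001516 among them, are limited by depth. The cause of these changes was not tested.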
